A study of Mus musculus with 8 samples.

Results

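The enzymes that write and erase DNA methylation were measured as transcripts after knockdown of Fto in 3T3-L1, mouse fibroblasts of an established line that can be turned into fat cells in culture. The genes described are Dnmt1, Dnmt3a, Dnmt3b, Uhrf1, Tet1, Tet2, Tet3, Tdg, N6amt1 and Mettl4. They were chosen by symbol, 10 of the 23699 gene entries in each deposited table, and each symbol matched 1 entry. RNA was sequenced in 8 libraries. In 4 of them the cells had received 3 Stealth siRNAs against Fto, and in the other 4 libraries they had received 3 nontargeted control siRNAs. In both, 40 nM siRNA was given with Lipofectamine 2000 for 24 hours before confluence, in growth medium with newborn calf serum. RNA was taken from preadipocytes 2 days after confluence that had not been induced to differentiate. All cells belong to a single established line, and the labels do not say whether replicates were separate cultures, so each p-value here reflects the spread among these libraries alone, which may be technical.

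Methylation of cytosine in CpG pairs is copied after DNA replication by Dnmt1, which Uhrf1 brings to hemimethylated sites, and is laid down on unmethylated DNA by Dnmt3a and Dnmt3b. The Tet dioxygenases oxidise methylcytosine with iron and 2-oxoglutarate, the same cofactors that Fto uses, and Tdg cuts out the most oxidised bases so that repair can restore cytosine. N6amt1 and Mettl4 are methyltransferases that have been proposed to methylate adenine in mammalian DNA. N6amt1 is also known, with its partner Trmt112, to methylate a translation release factor, and Mettl4 to methylate an adenosine of a small nuclear RNA. The labels give the comparison as Fto knockdown against control knockdown in confluent preadipocytes, and the question here is whether transcripts of these enzymes differ between the groups.

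Levels are FPKM, fragments scaled to transcript length and to the size of the library, as deposited. Since FPKM divides by length, levels of different genes can be set side by side. The summed FPKM of a library was 454737 to 484842, and the relative depth worked out from the widths of the deposited intervals was 0.878 to 1.13. The labelled target was lower in each Fto siRNA library. Fto was at 13.8, 10.7, 12.3 and 11.6 FPKM with Fto siRNA and at 54.6, 55.4, 56.2 and 55.2 FPKM with control siRNA (exact two-sided permutation p = 0.0286, the smallest that 70 arrangements allow). All 9 preadipocyte markers were detected, among them the preadipocyte factor Dlk1 at 939 ± 51.2 FPKM with Fto siRNA and 918 ± 78.6 FPKM with control siRNA (SD, n = 4). The 5 endothelial and 5 epithelial markers each lay under 0.5 FPKM in every library. Of the preadipocyte markers 4 rose, 2 fell and 3 did not pass, and with single libraries left out, quantile normalization, the replicate block or no filter as few as 1 rose and 1 fell. Called by the lowest p were the surface protein Thy1 (log2 fold change 0.29), the collagen Col1a2 (0.22) and the receptors Pdgfra (-0.21) and Pdgfrb (-0.14). Mature adipocyte markers summed to 54.2 to 65.9 FPKM with Fto siRNA and 51.6 to 83.2 FPKM with control siRNA, and the 3 of 7 that were tested did not pass. Their median log2 fold change was -0.44, and it was -0.06 without control replicate 4 and -0.77 without control replicate 1. The median of -0.44 was the value of Cidec. That gene was at 0.527 to 0.838 FPKM with Fto siRNA and at 0.354, 1.03, 1.19 and 3.26 FPKM with control siRNA. Cidec thus passed the filter only through the control group, which biases this median downward. Control replicate 4 stood apart in this list, with the adipokine Adipoq at 9.19 FPKM against 2.77 to 3.20 FPKM in the other control libraries. Macrophage markers summed to 1.84 to 2.51 FPKM with Fto siRNA and 1.43 to 1.89 FPKM with control siRNA. Of the 5 in the tables, Emr1 was at 0 in every library, and Cd68, the only one tested, did not pass (log2 fold change 0.21, limma adjusted p = 0.40). Csf1r, the receptor for a macrophage growth factor, was below the filter at 0.796 to 1.03 FPKM with Fto siRNA and 0.576 to 0.783 FPKM with control siRNA, groups that did not overlap (no filter, log2 fold change 0.29, limma adjusted p = 0.051). The part of such cells in the results was not tested. In total RNA of a culture, fewer cells that express a gene and less RNA per cell cannot be told apart.

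Of the 10 genes, Dnmt3a was higher and Mettl4 lower after Fto knockdown, 6 did not pass the test, and Dnmt3b and Tet1 lay below the filter on low values. The filter was a mean of at least 1 FPKM over the 8 libraries, which 11398 genes passed. Groups were compared with limma on log2(FPKM + 0.5), two-sided, with p-values adjusted by Benjamini-Hochberg across the whole set and called under 0.05. Fold changes are Fto siRNA over control siRNA on that scale, where changes of low genes come out too small. The test called 19.3% of all tested genes, 6.97% higher and 12.3% lower. The 2 calls among 8 tested enzymes are a share near that background. The median log2 fold change was 0.05 over the 8 tested enzymes, 0.01 to 0.09 with single libraries left out, and -0.02 over all tested genes.

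**Figure D1:**
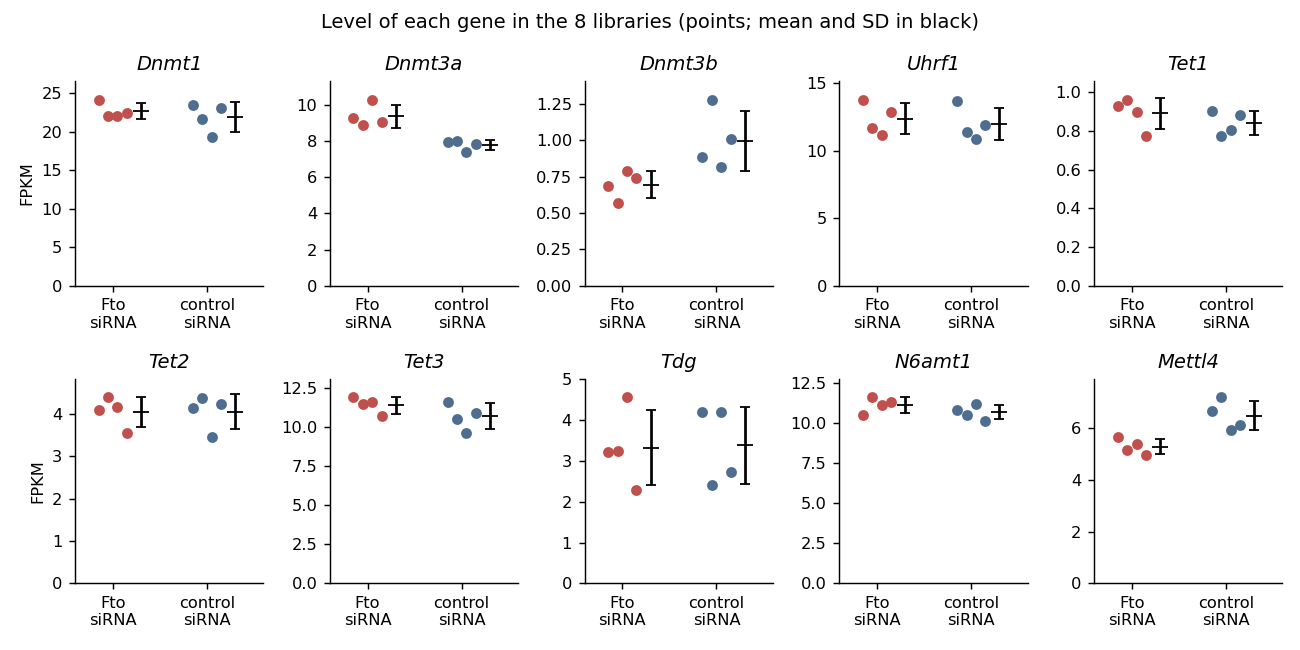
FPKM of each of the 10 genes in every library, with Fto siRNA libraries in red and control siRNA libraries in blue, and the mean and SD (n = 4) in black. The groups do not overlap for Dnmt3a (higher, as in 9.08% of tested genes) and Mettl4 (lower, as in 15.1%). They also do not overlap for Dnmt3b, which was below the filter. Tdg varies widely within both groups.

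Dnmt1, the maintenance methyltransferase, had the highest level of the 10 in both groups. It was at 24.2, 22.1, 22.1 and 22.5 FPKM with Fto siRNA and at 23.5, 21.7, 19.3 and 23.1 FPKM with control siRNA. The groups overlapped, and the lowest value was that of control replicate 3. The log2 fold change was 0.05, with a 95% interval from -0.08 to 0.19 (limma adjusted p = 0.58). Its deposited locus is mm9 chromosome 9, 20711650 to 20764332, and the deposited intervals extended 3.82 to 4.48% to either side of its values.

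Uhrf1, the reader of hemimethylated CpG that guides Dnmt1, was at 13.8, 11.7, 11.2 and 12.9 FPKM with Fto siRNA. With control siRNA it was at 13.7, 11.4, 10.9 and 11.9 FPKM. The groups overlapped almost wholly, and the log2 fold change was 0.05 (95% interval -0.12 to 0.23, limma adjusted p = 0.70). Uhrf1 and Dnmt1 shared the libraries at the ends of their ranges, since both were highest in Fto siRNA replicate 1, next highest in control replicate 1 and lowest in control replicate 3. Within groups Uhrf1 spread more than most genes of its level, with a pooled SD of 0.132 on the log2 scale, above that of 90.1% of 2936 genes whose mean FPKM lay within 1.5-fold of its own. For Dnmt1 the pooled SD was 0.1, above that of 82.7% of 2944 such genes.

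Both genes are known to be expressed mainly in dividing cells, so a list of 18 S phase genes is given beside them. The mean log2(FPKM + 0.5) over that list was 3.84, 3.75, 3.61 and 3.79 with Fto siRNA and 3.73, 3.65, 3.67 and 3.76 with control siRNA. Fto siRNA replicate 1 was highest there too, but the lowest was Fto siRNA replicate 3 and not control replicate 3. Of the 18 genes, 1 rose, none fell and 17 did not pass, with a list median of 0.03. Without Fto siRNA replicate 3, 2 of them rose. The gene that rose in the full comparison was Rrm2, a subunit of ribonucleotide reductase, at 20.6 ± 1.83 FPKM with Fto siRNA and 16.9 ± 0.849 FPKM with control siRNA (SD, n = 4), with a limma log2 fold change of 0.28 and adjusted p of 0.012. The part of cell division in the spread of Dnmt1 and Uhrf1 was not tested.

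**Figure D2:**
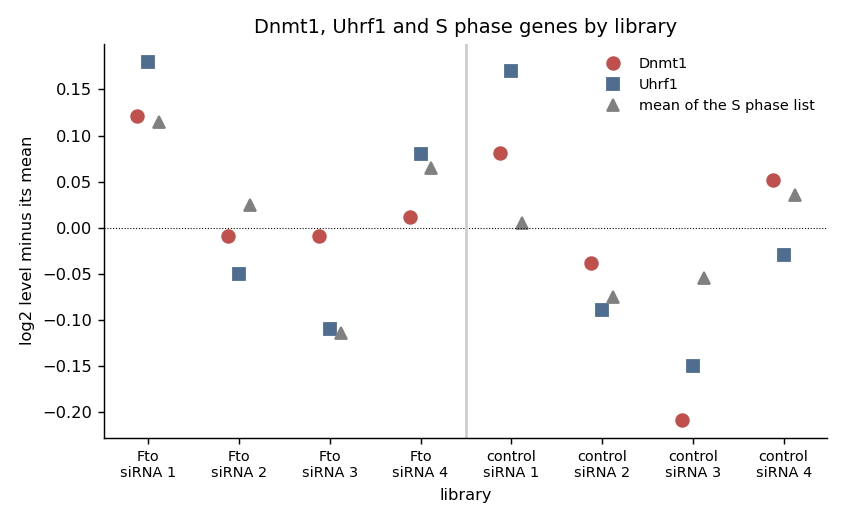
Level of Dnmt1, Uhrf1 and the mean of 18 S phase genes in each library, as log2(FPKM + 0.5) minus its mean over the 8 libraries, with Fto siRNA libraries left of the grey line. Dnmt1 and Uhrf1 are both highest in Fto siRNA replicate 1 and lowest in control replicate 3.

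The promoters of these 2 genes are shown because only they among the 10 held either of 2 chosen words. Both words are of a kind bound by E2F, the factor family that drives S phase genes. The words searched were TTTCGCGC and TTTGGCGC, on both strands, in RefSeq windows of 300 bases (250 before to 50 after an annotated start) of build GRCm38.p6. These words were chosen after the windows of the 10 genes had been looked at. That only Dnmt1 and Uhrf1 held them is thus a description and no evidence, also beside the shares given next. No other E2F word was searched, so the remaining promoters were not shown to lack one. All 10 genes had at least 1 window, and 0.813% of 32851 windows of all genes, or 1.94% of 8099 tested genes, held a word. Capitals mark the matches, which describe letters and not measured binding. The Dnmt1 window with a word is chr9:20952574-20952873, minus strand, and that of Uhrf1 is chr17:56304063-56304362, plus strand. Both genes also have windows at other annotated starts, which held neither word.
Dnmt1: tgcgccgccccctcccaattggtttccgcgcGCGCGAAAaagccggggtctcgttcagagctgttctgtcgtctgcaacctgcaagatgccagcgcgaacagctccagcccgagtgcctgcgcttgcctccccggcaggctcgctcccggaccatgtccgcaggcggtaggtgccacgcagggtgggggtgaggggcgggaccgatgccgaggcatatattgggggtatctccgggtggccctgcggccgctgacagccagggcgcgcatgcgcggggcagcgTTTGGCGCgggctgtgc
Uhrf1: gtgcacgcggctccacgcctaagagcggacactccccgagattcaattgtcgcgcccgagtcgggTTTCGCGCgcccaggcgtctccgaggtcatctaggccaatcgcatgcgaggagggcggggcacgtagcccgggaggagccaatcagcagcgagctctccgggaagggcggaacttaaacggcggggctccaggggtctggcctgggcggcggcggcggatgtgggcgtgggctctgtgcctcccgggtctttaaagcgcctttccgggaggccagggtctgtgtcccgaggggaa

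Dnmt3a, a de novo methyltransferase, was the only enzyme of the 8 tested that rose. It was at 9.27, 8.91, 10.3 and 9.06 FPKM with Fto siRNA and at 7.96, 8.0, 7.38 and 7.85 FPKM with control siRNA. Every Fto siRNA library lay above every control library, which held for 9.08% of tested genes. The means were 9.38 ± 0.628 FPKM with Fto siRNA and 7.80 ± 0.287 FPKM with control siRNA (SD, n = 4), which is 20.4% above control. On the log2 scale the fold change was 0.25 ± 0.05 (SE), with a 95% interval from 0.13 to 0.37 (limma adjusted p = 0.0094). The change was larger in size than that of 54.5% of all called genes.

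The Dnmt3a locus is mm9 chromosome 12, 3806980 to 3914443, and holds the entry Gm10485, which was listed at no more than 0.0787 FPKM in any library. The gene has several annotated starts, and 1 value per gene does not separate the protein forms that they give. The genes whose pattern over the 8 libraries was most like that of Dnmt3a were Klf13, a Krüppel-like factor, Eya1, a developmental cofactor and phosphatase, and Tex2. Their root mean square differences from Dnmt3a in centred log2 level were 0.0394, 0.0403 and 0.0422, against a median of 0.165 over 9132 genes. Klf13 was at 13.3 ± 0.435 FPKM with Fto siRNA and 10.8 ± 0.304 FPKM with control siRNA (SD, n = 4).

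Dnmt3b, the other de novo enzyme, was far below Dnmt3a in level, and its FPKM were lower with Fto siRNA.
It was at 0.686, 0.570, 0.786 and 0.744 FPKM with Fto siRNA and at 0.883, 1.28, 0.817 and 1.01 FPKM with control siRNA. Every Fto siRNA library lay below every control library, which held for 15.1% of tested genes, a set that does not hold Dnmt3b. That share was not worked out for genes below the filter. The means were 0.696 ± 0.0938 FPKM with Fto siRNA and 0.996 ± 0.204 FPKM with control siRNA (SD, n = 4), a change of -30.1%. The mean over the 8 libraries, 0.846 FPKM, was under the filter, so Dnmt3b had no test among the 11398 genes. With no filter, limma gave a log2 fold change of -0.32 with a 95% interval from -0.56 to -0.07, which did not pass (adjusted p = 0.11). The deposited intervals were wide, 18.5 to 30.9% to either side of each value, which corresponds to 42 to 117 fragments if counting error alone set them.

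Within a library, shares of the summed FPKM of the 3 methyltransferases do not depend on the scaling between libraries. Dnmt3a made up 27.1 to 31.1% of that sum with Fto siRNA and 24.6 to 26.9% with control siRNA. Dnmt3b made up 1.80 to 2.37% with Fto siRNA and 2.73 to 4.13% with control siRNA. Neither share overlapped between the groups, while that of Dnmt1 did, at 66.6 to 70.9% with Fto siRNA and 70.1 to 72.7% with control siRNA. A share within such a sum moves with the other genes in it, so the shares show unequal change and not which gene changed. They are formed from the same FPKM as above and are no separate result. How often such shares fail to overlap among other genes was not worked out.

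Among the Tet dioxygenases, Tet3 was the most abundant, Tet2 lower and Tet1 near the limit of the filter, and neither of the 2 that were tested passed. Tet3 was at 11.9, 11.5, 11.6 and 10.7 FPKM with Fto siRNA and at 11.6, 10.5, 9.59 and 10.9 FPKM with control siRNA. The groups overlapped, with control replicate 3 lowest, and the log2 fold change was 0.10 (95% interval -0.03 to 0.23, limma adjusted p = 0.29). Tet2 was at 4.10, 4.39, 4.16 and 3.54 FPKM with Fto siRNA and at 4.13, 4.38, 3.45 and 4.24 FPKM with control siRNA. Each group held 1 lower library, and the log2 fold change was 0.00 (95% interval -0.19 to 0.19, limma adjusted p = 0.999). Tet1, the family member best known from embryonic stem cells, was at 0.931, 0.962, 0.898 and 0.775 FPKM with Fto siRNA. With control siRNA it was at 0.903, 0.772, 0.805 and 0.881 FPKM, and the groups overlapped. With no filter its log2 fold change was 0.05 (95% interval -0.09 to 0.20, limma adjusted p = 0.66). Tet3 made up 68.2 to 71.2% of the summed Tet FPKM with Fto siRNA and 67.1 to 69.8% with control siRNA, so its share overlapped between the groups.

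Tdg, the glycosylase that removes formylcytosine and carboxylcytosine, varied more between libraries of the same group than any other of the 10 genes. It was at 3.22, 3.25, 4.56 and 2.30 FPKM with Fto siRNA and at 4.20, 2.41, 4.19 and 2.73 FPKM with control siRNA. The groups overlapped fully, and high and low libraries stood in each. The log2 fold change was -0.02 (95% interval -0.46 to 0.42, limma adjusted p = 0.96), an interval that reaches from a fold of 0.728 to a fold of 1.34. Its pooled SD within groups was 0.354 on the log2 scale, above that of 98.2% of 1361 genes of like level, whose median was 0.11. The spread went beyond the deposited intervals, since control replicate 1 had 3.63 to 4.77 FPKM and control replicate 2 had 1.97 to 2.86 FPKM.

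The deposited tables hold a second entry, Gm9855, at almost the same place as Tdg. Tdg lies at mm9 chromosome 10, 82092583 to 82113239, and Gm9855 at 82092587 to 82113022. Gm9855 was at 2.17, 2.04, 0.604 and 2.85 FPKM with Fto siRNA and at 1.13, 2.29, 1.0 and 2.23 FPKM with control siRNA, each with the status LOWDATA and an interval that reached 0. Gm9855 was lowest in Fto siRNA replicate 3, where Tdg was highest, and highest in Fto siRNA replicate 4, where Tdg was lowest. The order of the 8 libraries by Gm9855 was the reverse of their order by Tdg, except that control replicates 1 and 3 changed places. Fragments of the 2 entries cannot be told apart from the gene tables, so the Tdg values are uncertain as a measure of the gene, and how far the second entry sets their spread was not tested. The Tdg locus also meets the end of Glt8d2, a glycosyltransferase gene listed at 19.0 to 25.2 FPKM.

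**Figure D3:**
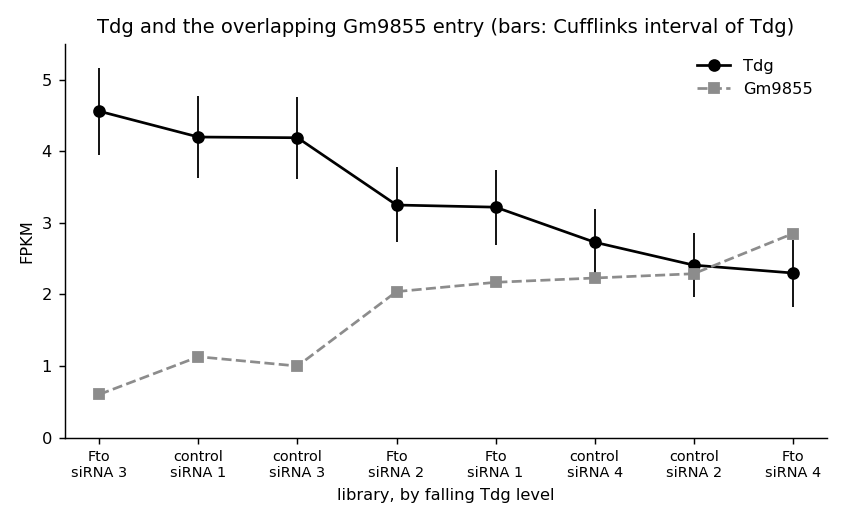
FPKM of Tdg, with the deposited Cufflinks interval as bars, and of the overlapping entry Gm9855 in the 8 libraries, ordered by falling Tdg level. Tdg falls to 2.30 FPKM in the library where Gm9855 reaches 2.85 FPKM, and libraries of both groups are mixed along the order.

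The 2 adenine methyltransferase homologs differed in their result, since Mettl4 fell and N6amt1 did not pass. Mettl4 was at 5.66, 5.18, 5.38 and 4.96 FPKM with Fto siRNA and at 6.66, 7.20, 5.95 and 6.14 FPKM with control siRNA. Every Fto siRNA library lay below every control library, which held for 15.1% of tested genes. The means were 5.29 ± 0.297 FPKM with Fto siRNA and 6.49 ± 0.563 FPKM with control siRNA (SD, n = 4), a change of -18.4%. On the log2 scale the fold change was -0.27 ± 0.07 (SE), with a 95% interval from -0.42 to -0.12 (limma adjusted p = 0.019). The call was lost without control replicate 2, the highest control (log2 fold change -0.22, limma adjusted p = 0.052), or without Fto siRNA replicate 4, the lowest (-0.24, adjusted p = 0.053).

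N6amt1 was at 10.5, 11.6, 11.1 and 11.3 FPKM with Fto siRNA and at 10.8, 10.5, 11.2 and 10.1 FPKM with control siRNA. Its groups overlapped, and the log2 fold change was 0.06 (95% interval -0.04 to 0.16, limma adjusted p = 0.42). A list of 4 further genes was set beside these for a proposed link to adenine methylation in DNA, which for N6amt2 is its name only. None passed, with log2 fold changes of -0.13 for Trmt112, the partner of N6amt1, 0.13 for Alkbh1, 0.10 for Alkbh4 and -0.06 for N6amt2. Their limma adjusted p were 0.14, 0.18, 0.42 and 0.52, and 1 of the 4, Trmt112, had an unadjusted p under the threshold (0.043). Trmt112 was at 40.1, 36.9, 38.8 and 38.6 FPKM with Fto siRNA and at 41.2, 40.3, 48.2 and 40.4 FPKM with control siRNA, so the groups just failed to overlap and control replicate 3 stood highest.

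The genes most like Mettl4 over the 8 libraries were Uaca, Cntln, a centriole linker gene, and Aff3, a nuclear factor of the AF4 family. Their root mean square differences in centred log2 level were 0.0492, 0.05 and 0.0524, against a median of 0.173 over 9132 genes. Uaca was at 13.8 ± 0.267 FPKM with Fto siRNA and 16.8 ± 1.07 FPKM with control siRNA (SD, n = 4).

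**Figure D4:**
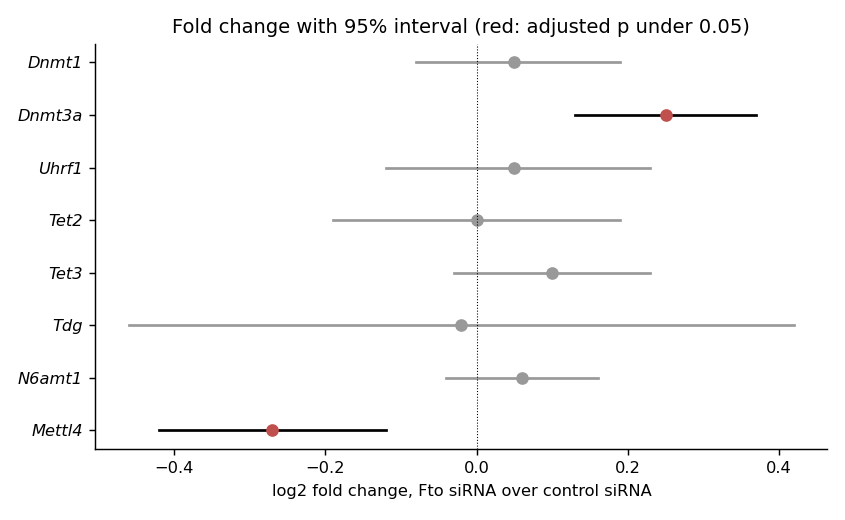
Log2 fold change of the 8 tested enzymes, Fto siRNA over control siRNA, with the 95% interval from limma; red points passed the adjusted threshold of 0.05. The intervals of Dnmt3a (0.13 to 0.37) and Mettl4 (-0.42 to -0.12) lie on opposite sides of 0, and that of Tdg is the widest.

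Fallen genes of this comparison often hold the words GACCTTA or ACCTTAA in the 3′ UTR. The words had been picked in these same data for that property, so their share among fallen genes is a description and no evidence. With the longest annotated 3′ UTR of each gene in GENCODE M21, 13% of 9887 tested genes held a word. The share was 26.2% of 1233 genes called lower, 8.33% of 708 called higher and 11.3% of 7946 not called. A longer 3′ UTR has more room for a match, and lengths were not compared between these classes. Of the 10 enzymes, Mettl4 and Tet1 held a word and the other 8 did not. The sites are shown with the word in capitals, together with the only match to the joined word GACCTTAA in the longest Fto coding transcript, which lies in exon 3. No siRNA sequence was used here, and a match is not a measured site. All coordinates are GRCm38, of the capitals: Mettl4 site A is chr17:94724257-94724263 and site B chr17:94722956-94722962, minus strand, Tet1 site A is chr10:62810689-62810695 and site B chr10:62809136-62809142, minus strand, and the Fto match is chr8:91409664-91409671, plus strand.
Mettl4 site A: ttgattgaaagtACCTTAAgaaagtcacaa
Mettl4 site B: gagcacactcttACCTTAAtatatccgtgg
Tet1 site A: tttgaggtttcaGACCTTAtctagaaatca
Tet1 site B: taagtgtatgcaACCTTAAcacaaagctac
Fto coding match: atgatgaagtgGACCTTAAgagcagagcag

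Mettl4, which fell, and Tet1, whose groups overlapped, thus each held 2 matches, in 3′ UTRs of 4660 and 7962 bases. Dnmt3a has a 3′ UTR of 6696 bases with no match.

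By level, Dnmt1 stood first, and Uhrf1, Tet3 and N6amt1 followed with ranges that overlapped between neighbours in both groups. Dnmt3a and Mettl4 came next, each apart from its neighbours in the order. Tet2 and Tdg overlapped, as did Tet1 and Dnmt3b, which were lowest. The order in the Fto siRNA group and in the control group differed in 2 places only, where Tet3 and N6amt1 and where Tet1 and Dnmt3b changed ranks, and at both places the ranges overlapped. Among all tested genes Dnmt1 lay at the percentile 63.2 of mean FPKM, Uhrf1 at 42.9, Dnmt3a at 32.5, Mettl4 at 22.9 and Tdg at 12.6.

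Proteins that work with the methyltransferases mostly did not pass. Of 16 cofactors that recruit or direct them, 15 were tested, and 2 rose, 1 fell and 12 did not pass, with a list median of -0.00. Over all tested genes limma called 19.3%, 6.97% higher and 12.3% lower, and the counts of this and the other lists are to be read beside these shares. No list was tested as a set. Setdb1 and Ehmt1, histone H3 lysine methyltransferases that silence chromatin, rose. Setdb1 was at 23.8, 24.5, 24.4 and 22.4 FPKM with Fto siRNA and at 21.7, 20.7, 20.0 and 21.1 FPKM with control siRNA (log2 fold change 0.18, limma adjusted p = 0.013). Ehmt1 was at 17.5 ± 0.303 FPKM with Fto siRNA and 15.5 ± 0.358 FPKM with control siRNA (SD, n = 4), with a limma log2 fold change of 0.17 and adjusted p of 0.0079. Zfp57, the zinc finger protein that keeps methylation at imprinted regions, fell. It was at 32.0, 30.8, 34.6 and 30.2 FPKM with Fto siRNA and at 39.0, 41.0, 39.1 and 35.8 FPKM with control siRNA (log2 fold change -0.28, adjusted p = 0.0059). Hells, a remodeller needed for methylation of repeats, had a log2 fold change of -0.06 (95% interval -0.16 to 0.05, adjusted p = 0.44). Dnmt3l, the catalytically inactive relative of Dnmt3a, lay below the filter at 0.190 ± 0.0887 FPKM with Fto siRNA and 0.0931 ± 0.0722 FPKM with control siRNA.

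Among 9 genes for readers of methylated CpG or for relatives of such readers, limma called none higher and none lower, and none had an unadjusted p under 0.05. Mbd3, Mbd5 and Mbd6 are in the list by family and are not taken here as readers. Their log2 fold changes ran from -0.10 to 0.05 with a median of -0.05. Mbd2, a subunit of a chromatin remodelling and deacetylase complex, had -0.01 (95% interval -0.11 to 0.10, limma adjusted p = 0.95).

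Of 21 genes of base excision repair and related demethylation routes, 18 were tested, of which 1 rose, 2 fell and 15 did not pass. Gadd45a, a stress protein that has been linked to repair-based demethylation, rose to 22.1 ± 1.04 FPKM with Fto siRNA, against 16.6 ± 1.15 FPKM with control siRNA (SD, n = 4), with a limma log2 fold change of 0.40 and adjusted p of 8.8e-04. Neil1, a glycosylase that can act after Tdg, fell to 5.16, 4.78, 5.66 and 6.07 FPKM with Fto siRNA, against 6.80, 6.46, 6.63 and 6.61 FPKM with control siRNA (log2 fold change -0.27, adjusted p = 0.019). The Neil1 call was lost without Fto siRNA replicate 1 (-0.25, adjusted p = 0.051), which left 1 gene of the list that fell. Apobec3, a cytidine deaminase of antiviral defence, also fell, with a limma log2 fold change of -0.24 and adjusted p of 0.0064. The glycosylase Mbd4, which like Tdg acts on mismatched thymine, had a log2 fold change of -0.02 (95% interval -0.13 to 0.08, adjusted p = 0.80). Neil2 was listed at 0 in all 8 libraries.

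Of 18 partners of the Tet enzymes and enzymes of their cosubstrate, all tested, 2 rose, 2 fell and 14 did not pass. Idh2, the mitochondrial isocitrate dehydrogenase that makes 2-oxoglutarate, fell to 165, 158, 174 and 170 FPKM with Fto siRNA, against 209, 208, 226 and 206 FPKM with control siRNA (log2 fold change -0.34, limma adjusted p = 5.8e-04). Ogt, the glycosyltransferase that binds Tet proteins, fell to 65.1 ± 2.87 FPKM with Fto siRNA, against 79.2 ± 1.84 FPKM with control siRNA (SD, n = 4), with a limma log2 fold change of -0.28 and adjusted p of 8.8e-04. Ogdh, a subunit of the complex that consumes 2-oxoglutarate, rose to 16.2 ± 0.214 FPKM with Fto siRNA, against 14.3 ± 0.287 FPKM with control siRNA (log2 fold change 0.17, adjusted p = 0.0063). Slc23a2, a transporter of vitamin C, which helps Tet enzymes keep their iron reduced, rose to 23.9 ± 0.326 FPKM with Fto siRNA, against 19.6 ± 0.943 FPKM with control siRNA (log2 fold change 0.28, adjusted p = 0.0011).

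The methionine and folate cycle feeds every methyltransferase described here with S-adenosylmethionine. Of its 21 listed genes 17 were tested, of which 1 rose, 5 fell and 11 did not pass, with a median of -0.02. Shmt1, the cytosolic enzyme that loads folate with a carbon from serine, fell to 7.46, 6.81, 7.55 and 7.18 FPKM with Fto siRNA, against 10.0, 9.56, 9.81 and 10.1 FPKM with control siRNA (log2 fold change -0.42, limma adjusted p = 2.8e-04). Mthfd2, a mitochondrial folate enzyme, rose to 50.0, 45.3, 41.3 and 53.8 FPKM with Fto siRNA, against 35.8, 32.6, 37.1 and 37.5 FPKM with control siRNA (log2 fold change 0.40, adjusted p = 0.0057). Ahcyl1 and Ahcyl2, relatives of the enzyme that clears S-adenosylhomocysteine, also fell, with log2 fold changes of -0.16 for Ahcyl1 (limma adjusted p = 0.011) and -0.20 for Ahcyl2 (adjusted p = 0.016). Tyms, the thymidylate synthase, named after its values were seen, fell too, with a limma log2 fold change of -0.26 and adjusted p of 0.043. Counts of this list moved with the setting. Of its genes 2 rose under median-ratio scaling, quantile normalization, the replicate block or without control replicate 4. Only 4 fell under both scalings, the replicate block, a filter of at least 5 FPKM, or without Fto siRNA replicate 2, 3 or 4 or control replicate 1 or 2, and 3 fell without control replicate 4.

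**Figure D5:**
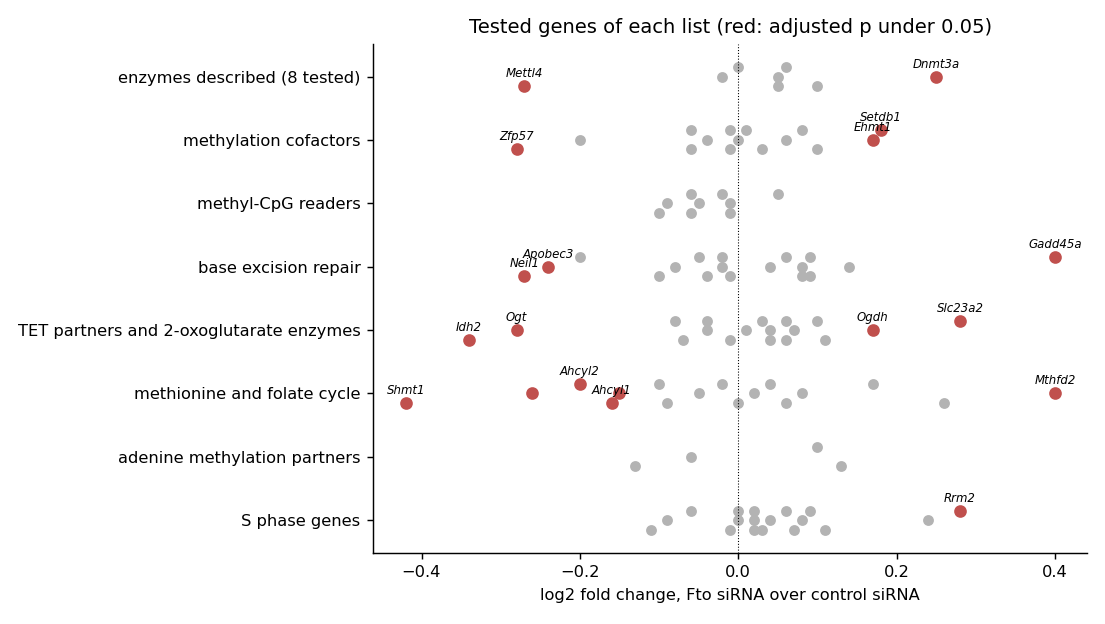
Log2 fold change, Fto siRNA over control siRNA, of the tested genes in the enzymes described and in 7 related lists; each point is a gene, red where the limma adjusted p was under 0.05, and its height within a row has no meaning; up to 4 called genes of each list are labelled. Most points of every list lie near 0, and the called genes stand on both sides in the enzymes, the cofactors, the repair genes, the Tet partners and the folate cycle.

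Germline genes that somatic cells are known to silence by promoter methylation were low in both groups. Of 25 listed, 24 were in the tables, 9 of these were at 0 in all 8 libraries and 3 passed the filter, of which limma called none higher and none lower and none had an unadjusted p under 0.05. Of the genes below the filter, 2 passed with no filter and are named after their values were seen. Ddx4, a germ cell RNA helicase, was at 1.08, 1.12, 0.977 and 1.07 FPKM with Fto siRNA and at 0.732, 0.662, 0.598 and 0.714 FPKM with control siRNA. Its log2 fold change was 0.41 (95% interval 0.28 to 0.54, limma adjusted p with no filter 0.0052). Piwil2, a germline Argonaute protein, was at 0.571, 0.569, 0.532 and 0.433 FPKM with Fto siRNA and at 0.347, 0.281, 0.367 and 0.277 FPKM with control siRNA (log2 fold change 0.33, adjusted p with no filter 0.016). With no filter, limma called 3.82% of 17807 genes higher. Methylation of these promoters was not measured, and a link to the level of Dnmt3a or Dnmt3b was not tested.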

How the data were processed

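RNA from 8 libraries, 4 with Fto siRNA and 4 with control siRNA, was grouped by the sample titles. The submitters' processing notes name TopHat2 2.0.11, Cufflinks 2.2.1 and mm9. Each library has its own deposited gene table of FPKM, per the file headers, with interval bounds and a status. Strand and annotation are not stated. The authors' compiled tables were not used.

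Here log2(FPKM + 0.5) was compared by limma 3.58.1 in R 4.3.3, with a variance trend, for the 11398 genes whose FPKM averaged 1 or more. The test was two-sided, p-values were adjusted across those genes by the Benjamini-Hochberg method, and the script was first tested on simulated data. Alternatives changed the pseudocount (0.1, 1), filter (none, 5), scaling, trend, replicate block and single libraries. The 10 enzymes and 13 lists were chosen with earlier results of these data known. The text names each enzyme, the called genes of each list (up to 4 with the lowest p), and for each called enzyme the 3 genes (mean FPKM of 5 or more) with the most similar pattern; other genes were named after their values were seen. Between libraries of the same group the median difference was 0.901 to 1.54 standard errors of the deposited intervals, and no library was treated as a repeat. The start of each deposited locus is given with 1 added, so that positions count from 1. That the deposited starts needed this was assumed. Promoters came from RefSeq (GRCm38.p6) and transcripts from GENCODE M21 (GRCm38), used for sequence only. Deposited intervals leave out the spread between libraries. Some genes of the lists are counted but not reported here by name.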

Additional observations from a re-analysis of the deposited data

How the results depend on the processing

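All 8 tested enzymes and Fto kept their side of the threshold with a pseudocount of 0.1 or 1, no filter, median-ratio scaling, quantile normalization, no variance trend and the replicate block, and those with a mean of at least 5 FPKM also kept it under that filter. Leaving out single libraries changed a call only for Mettl4, whose log2 fold change ran from -0.31 to -0.22. Dnmt3a ran from 0.21 to 0.27 and remained called each time. The counts of called genes were 794 higher and 1401 lower. Under median-ratio scaling they were 1086 and 1218, and under quantile normalization 1086 and 1207, so that higher genes made up 47.1% and 47.4% of calls in place of 36.2%. Same-numbered libraries of the 2 groups correlated at -0.19 to 0.07 in their deviations from the group means, and differently numbered ones at -0.18 to 0.18. No shared deviation by number was seen, which does not show whether the libraries were paired in the experiment. With the replicate block limma called 628 higher and 1133 lower, and Dnmt3a had an adjusted p of 0.033 and Mettl4 of 0.03. Without control replicate 3, limma called 941 higher and 1433 lower. Tet1 and Dnmt3b were tested only with no filter.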
